A study of Mus musculus with 15 samples.

Results

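The mitochondrial ribosomal protein genes were followed in the midbrain of wild-type and transgenic mice given carnosine, the dipeptide formed by beta-alanine with histidine. They are the protein-coding genes whose symbol is Mrpl or Mrps followed by a number, and 78 of the 24454 gene rows fitted that rule. Of these, 49 have a symbol of the large subunit (Mrpl) and 29 a symbol of the small subunit (Mrps). All 78 passed the filter on low counts that left 15818 genes, and the lowest count of any of them in any library was 81.

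RNA was sequenced from 15 midbrain samples in 5 groups of 3. The transgenic mice (TG) carry a transgene driven by the Thy1 promoter, which is active mainly in neurons, and the wild-type mice (WT) are BDF1 mice. The groups were TG given 2 mg of carnosine intranasally, TG given 10 mM carnosine in drinking water, TG control, WT given 2 mg of carnosine intranasally, and WT control. Mice entered the treatment at 2 months of age and stayed on it for 2 months, and the labels do not say what the controls received or whether each sample is a separate animal. The p-values therefore measure the spread between these samples, which may be technical.

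The mitoribosome is the ribosome inside mitochondria, and it translates the few mRNAs of mitochondrial DNA, which encode core subunits of the respiratory chain and of the ATP synthase. Its ribosomal RNAs are made in the organelle, whereas its proteins are encoded in the nucleus, made in the cytosol and imported. Human mutations in several of these genes, MRPS34 and MRPL44 among them, cause combined defects of the respiratory chain, and neurons of the midbrain are known for their high demand for respiration. Mitochondrially encoded genes were not analysed here.

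Libraries held 14078637 to 34843691 counts in TG and 13202199 to 60542423 in WT, and the 78 genes took 0.184% to 0.347% of a library's counts in TG and 0.212% to 0.398% in WT. Thy1 stood at 3297 to 5032 CPM (counts scaled to the adjusted library size) in the 9 TG libraries and at 444 to 694 CPM in the 6 WT libraries. Of 9 dopamine neuron markers all were measured, and they summed to 202 to 459 CPM in a library. Slc6a3, the dopamine transporter, ranged between 0.474 and 39.1 CPM. Pitx3 was near 0 in every library, with at most 0.589 CPM, and at 0 in TG intranasal 3, TG control 3 and WT intranasal 1. A single row with no gene name held over 1% of the counts in all 6 WT libraries and in TG control 1 and 2, and 0.122% to 0.320% in the other 7. Summed pituitary markers (6 tested genes) reached 684 CPM in TG control 1 and 857 CPM in WT control 1, against at most 164 CPM elsewhere.

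RefSeq promoter windows of assembly GRCm38.p6, with 250 bases before and 50 after the annotated start, were available for 69 of the 78 genes, in 75 windows. They were searched on both strands for 3 motifs of factors known to bind promoters of mitochondrial protein genes: Nrf1 (GCGCA, then any base, then GCGC), the ETS family that includes GABP (CCGGAAG), and YY1 (AAGATGGC). The 5 windows printed here were picked, for their matches, from the 10 genes whose carnosine response by the nose differed between genotypes in the test given further on, and capitals mark the matches, on either strand. Of the other genes called there, Mrpl11, Mrpl20 and Mrpl28 have windows with no match and Mrpl49 has a window with 1 YY1 match. Mrpl52 has 2 ETS matches (chr14:54426659-54426958, plus strand). Mrps16 also has 2 ETS matches (chr14:20393441-20393740, minus strand). Mrps11 (chr7:78782881-78783180, plus strand) and Mrps24 (chr11:5707652-5707951, minus strand) each have 1 YY1 match. Mrps26 has 2 Nrf1 matches that overlap each other and 1 ETS match (chr2:130563507-130563806, plus strand).
Mrpl52: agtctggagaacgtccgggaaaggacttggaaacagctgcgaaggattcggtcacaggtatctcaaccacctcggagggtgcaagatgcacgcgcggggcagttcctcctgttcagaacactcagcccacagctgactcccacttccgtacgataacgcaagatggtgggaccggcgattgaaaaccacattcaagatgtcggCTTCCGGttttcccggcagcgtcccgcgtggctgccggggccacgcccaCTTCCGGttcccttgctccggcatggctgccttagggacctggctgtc
Mrps16: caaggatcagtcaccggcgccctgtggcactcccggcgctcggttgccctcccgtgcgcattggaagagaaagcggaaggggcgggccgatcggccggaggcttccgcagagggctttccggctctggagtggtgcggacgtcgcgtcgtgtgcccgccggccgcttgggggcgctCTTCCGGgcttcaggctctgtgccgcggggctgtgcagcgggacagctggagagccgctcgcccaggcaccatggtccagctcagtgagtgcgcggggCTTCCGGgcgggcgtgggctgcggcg
Mrps11: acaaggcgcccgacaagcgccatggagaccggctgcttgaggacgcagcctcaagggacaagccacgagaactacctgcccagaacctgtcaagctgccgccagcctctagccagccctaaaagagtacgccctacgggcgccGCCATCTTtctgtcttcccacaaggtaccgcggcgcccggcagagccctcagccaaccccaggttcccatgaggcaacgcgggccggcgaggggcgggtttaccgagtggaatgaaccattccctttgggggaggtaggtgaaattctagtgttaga
Mrps24: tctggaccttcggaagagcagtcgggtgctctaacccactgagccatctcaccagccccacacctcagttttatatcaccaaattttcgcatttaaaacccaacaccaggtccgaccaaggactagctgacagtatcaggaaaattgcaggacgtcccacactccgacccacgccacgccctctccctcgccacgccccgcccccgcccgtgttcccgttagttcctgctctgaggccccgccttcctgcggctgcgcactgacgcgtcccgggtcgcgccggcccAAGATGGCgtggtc
Mrps26: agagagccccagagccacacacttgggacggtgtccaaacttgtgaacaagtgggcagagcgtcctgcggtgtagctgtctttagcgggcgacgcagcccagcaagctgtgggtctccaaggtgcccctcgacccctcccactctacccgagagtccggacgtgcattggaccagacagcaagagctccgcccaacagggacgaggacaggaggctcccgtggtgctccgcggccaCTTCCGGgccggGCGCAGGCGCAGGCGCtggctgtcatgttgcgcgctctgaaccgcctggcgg
At least 1 of the 3 motifs occurred in 43 of the 75 windows, 57.3%, against 14.7% of all 32851 windows and 24.2% of the 15828 windows of genes tested. The ETS motif was in 34.7% of the windows of mitochondrial ribosomal genes, against 8.86% of all windows and 14.8% of the windows of genes tested. The Nrf1 motif was in 17.3% of them, against 4.6% of all windows and 8.47% of the windows of genes tested. The YY1 motif was in 16% of them, against 2.75% of all windows and 3.78% of the windows of genes tested. These are matches of letters and not measured binding sites, and the windows of Mrps11 and Mrpl46, which start close together, share 141 bases.

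Levels of different genes were compared as CPM per kilobase of transcript, averaged over the 15 libraries. The transcript was the longest annotated one with a RefSeq match, or the longest annotated one where none had a match. Levels spanned 4.13 to 132 CPM per kilobase. Mrps21, a small-subunit protein with a bacterial homologue, was highest at 132, followed by Mrpl52, a large-subunit protein found in mitochondrial and not in bacterial ribosomes, at 120.1, and by Mrpl20, a large-subunit protein that binds ribosomal RNA, at 91.3 CPM per kilobase. The lowest were Mrpl47 at 4.13, Mrpl32 at 4.35 and Mrps35 at 4.68 CPM per kilobase. Their transcripts were long, at 3364, 3013 and 4162 bases, and without division by length they stood at 13.9, 13.1 and 19.5 CPM. Whether the transcript used is the expressed one was not tested. This bears most on genes with a long annotated form, such as Mrpl17, with 7300 bases.

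Members with known places in the ribosome also differed in level. Of the stalk that recruits translation factors, Mrpl12 stood at 60.1, Mrpl10 at 33.1 and Mrpl11, with a transcript of 3045 bases, at 16.1 CPM per kilobase. Mrps12, a protein of the decoding centre, stood at 47.1 CPM per kilobase. At the exit of the nascent chain tunnel, Mrpl23 was at 67.7 and Mrpl24 at 17.1, and Mrpl45, which anchors the ribosome to the inner membrane, was at 14.9 CPM per kilobase. The 3 paralogs of one bacterial protein were expressed side by side, Mrps18a at 66.9, Mrps18b at 21.2 and Mrps18c at 56.03 CPM per kilobase. Mrps30, which sits in the large subunit in spite of its symbol, was at 6.66, and Mrps36, which is known as a part of the 2-oxoglutarate dehydrogenase complex, at 48.6 CPM per kilobase.

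Levels of the 78 genes differed widely between the libraries of a group. The median log2 CPM of the 78 genes was 5.19, 5.21 and 5.40 in TG intranasal, 5.22, 5.03 and 4.87 in TG drinking water, 5.13, 4.53 and 5.03 in TG control, 4.93, 4.79 and 4.74 in WT intranasal, and 5.67, 5.16 and 5.22 in WT control. The lowest library was TG control 2 and the highest WT control 1. TG control 2 gave the lowest of the 15 values for 61 of the 78 genes, and WT control 1 gave the highest for 57. In WT control 1, 77 genes lay above their own mean over the libraries, and in TG control 2 none did. TG intranasal 3 was the highest library for 12 genes and WT intranasal 3 the lowest for 10. Both subunits showed the same order of the extremes, as the plot of library medians shows.

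**Figure D1:**
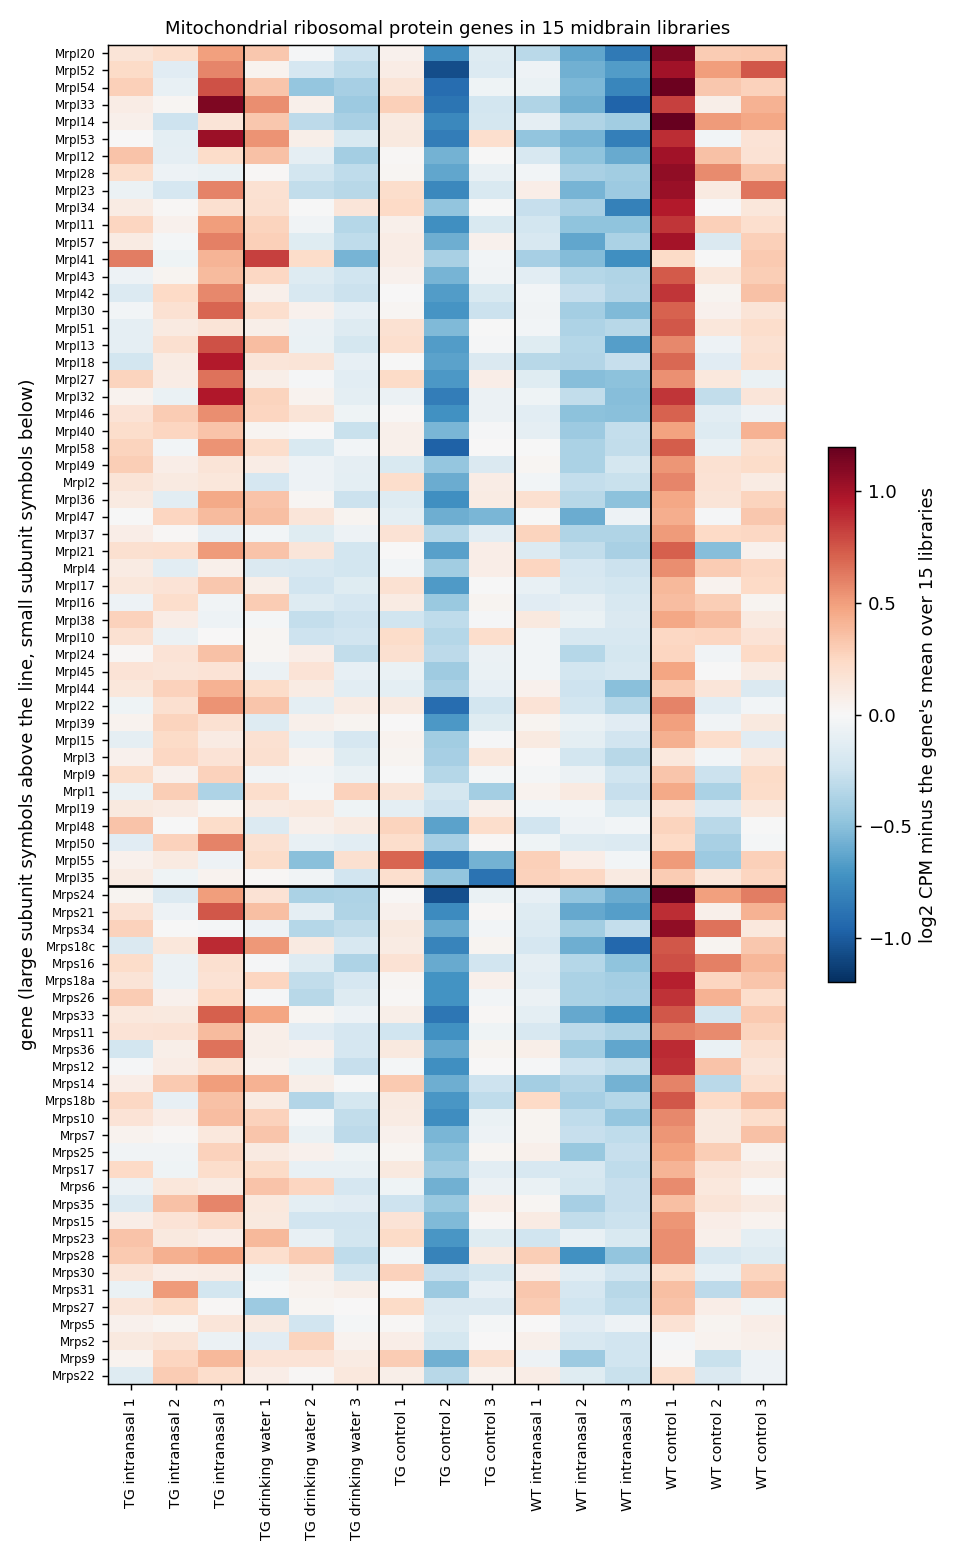
Level of each of the 78 genes (rows) in each of the 15 libraries (columns), as log2 CPM minus the gene's mean over the libraries, red for above and blue for below. The column of TG control 2 is blue for all 78 genes, and the column of WT control 1 is red for 77 of them.

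The same libraries also stood apart in other measures. In each library, the deviation of every gene from its mean was set against transcript length, over 15081 tested genes with a length. Spearman's rho across genes was 0.637 in TG control 2, 0.537 in WT intranasal 2 and 0.535 in WT intranasal 3, the 3 libraries lowest in the 78 genes, so that longer transcripts were relatively more abundant there. It was -0.571 in WT control 1, the library highest in the 78 genes, and lay between -0.331 and 0.271 in the other 11. Summed CPM of 6 astrocyte markers was 7872 in TG control 2, 5747 in WT intranasal 3 and 5185 in WT intranasal 2, and 1538 in WT control 1, against 2716 to 3339 in the other 11. Slc1a2, the main glutamate transporter of astrocytes, made up much of these sums, with 4879 CPM in TG control 2, 3185 in WT intranasal 3, 2753 in WT intranasal 2 and 466 in WT control 1. Other markers of the list ordered the libraries differently: Gfap, an astrocyte filament protein, was at 827 CPM in TG control 2 and highest in TG intranasal 1 at 1272 CPM, and Aldh1l1, a folate enzyme of astrocytes, was highest in WT control 2 at 190.3 CPM.

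Summed markers of other cells also stood apart in some of these libraries. Summed CPM of 6 neuron markers was 5550 in TG control 2, 4979 in WT intranasal 2, 4858 in WT intranasal 3 and 3366 in WT control 1, against 3654 to 4859 in the other 11. Map2 carried much of this order, with 2804 CPM in TG control 2 and 366 in WT control 1. Syt1 and Rbfox3 were also higher in TG control 2 than in WT control 1. Stmn2 went the other way, with 216 CPM in TG control 2 and 368 in WT control 1, as did Tubb3 and Snap25. Summed CPM of 7 oligodendrocyte markers was 14470 in TG control 2, 14100 in WT intranasal 2, 15270 in WT intranasal 3 and 29530 in WT control 1, against 15140 to 31030 in the other 11. Cerebellar neuron markers (10 tested genes) summed to 268 CPM in WT intranasal 2, 288 in WT intranasal 3 and 267 in TG drinking water 3, against 131.5 to 211 CPM elsewhere. Of these, Gabra6, a GABA receptor subunit of cerebellar granule cells, was at 14.4 CPM in WT intranasal 2, 18.6 in WT intranasal 3 and 12.6 in TG drinking water 3, against at most 2.46 CPM elsewhere. Calb1 of the same list ordered the libraries differently, at 90.8 CPM in WT intranasal 2 and 67.4 in WT intranasal 3. It was at 91.4 CPM in TG drinking water 3 and highest in TG intranasal 3 at 114 CPM. The part of transcript length or of these cell types in the differences between groups was not tested apart from the correction for length given further on.

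**Figure D2:**
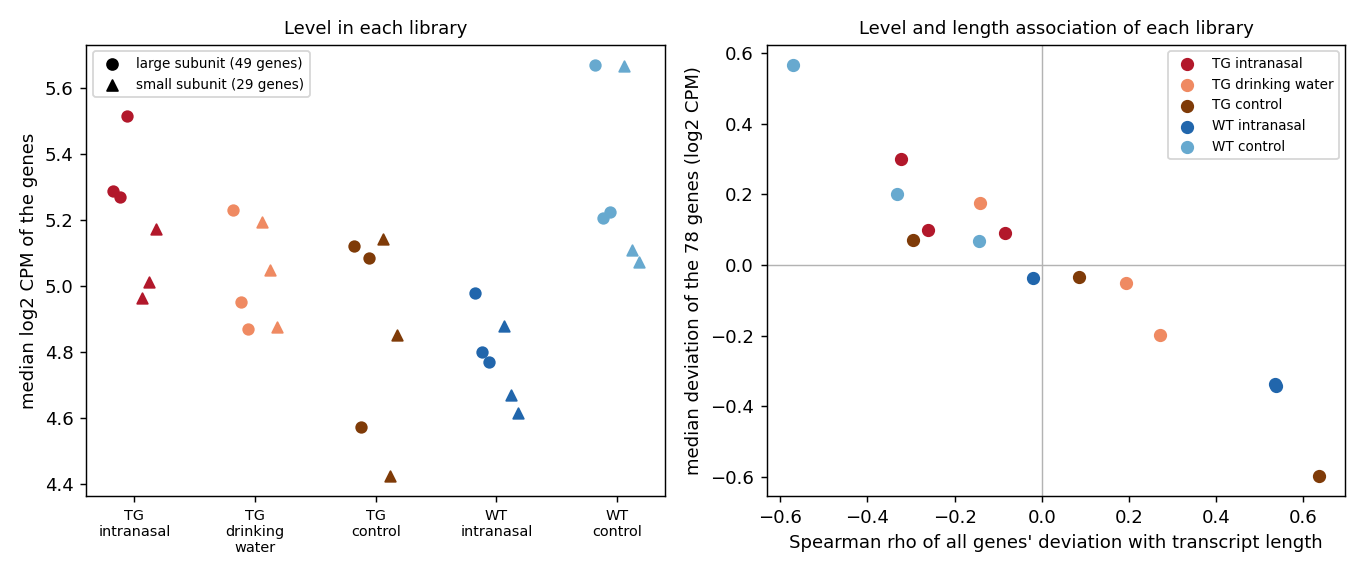
Left, median log2 CPM of the large-subunit (circles) and small-subunit (triangles) genes in each library, by group. Right, median deviation of the 78 genes in log2 CPM (vertical axis) against Spearman's rho of all genes' deviation with transcript length (horizontal axis), 1 point per library, with WT control 1 at the upper left (-0.571) and TG control 2 at the lower right (0.637).

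TG control set against WT control compares the genotypes in mice that the labels call controls. In TG control the 78 genes lay lower, at a median log2 fold change of -0.47 (quartiles -0.65 and -0.31), and 76 of 78 had a negative fold change. Over all 15818 genes tested the median was 0.02 and 48.0% were lower. The large-subunit median was -0.48 and the small-subunit median -0.46. None of the 78 passed edgeR's quasi-likelihood test at a Benjamini-Hochberg adjusted p of 0.05, against 0.0126% of all genes, and 37 were lower at an unadjusted p under 0.05, against 9.27% of all genes. DESeq2 called 11, all lower, against 3.19% of the genes it tested, a share in either direction, and 2.32% called lower. In bulk tissue, fewer cells that express a gene and less RNA per cell cannot be told apart.

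The groups did not overlap for 32 of the 78 genes, all lower in TG control, against 9.07% of all genes. Mrps11 (gene ID 67994), a small-subunit protein with a bacterial homologue, stood at 22.1, 15.7 and 25.2 CPM in TG control, against 39.8, 38.8 and 31.4 CPM in WT control. Its log2 fold change was -0.80 (SE 0.17), with an adjusted p of 0.125 from edgeR's quasi-likelihood test. Every TG control library lay below every WT control library.

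Mrps24 (gene ID 64660), another small-subunit protein, had 48.1, 22.9 and 45.02 CPM in TG control, against 123, 66.8 and 72.5 CPM in WT control, a log2 fold change of -1.18 (SE 0.29). TG control 2 and WT control 1 were its extremes, and the groups were separate. Mrpl52 had 49.8, 22.3 and 41.7 CPM in TG control, against 94.2, 66.4 and 78.6 CPM in WT control (log2 fold change -1.07, SE 0.26). Mrpl28, a large-subunit protein with a bacterial homologue, had 66.6, 42.4 and 61.6 CPM in TG control, against 137, 96.98 and 82.5 CPM in WT control (log2 fold change -0.89, SE 0.20). Mrps16, for which human mutations cause a respiratory chain disorder, had 35.2, 20.5 and 26.7 CPM in TG control, against 53.7, 47.7 and 41.4 CPM in WT control (log2 fold change -0.79, SE 0.19). The groups did not overlap for any of these 5 genes, which had the smallest p-values among the 78, and their adjusted p lay between 0.125 and 0.127.

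Positive fold changes were found for 2 genes. Mrps9, a small-subunit protein with a bacterial homologue, had 28.9, 15.7 and 26.7 CPM in TG control, against 23.6, 19.4 and 22.4 CPM in WT control (log2 fold change 0.13). Mrpl50, a mitochondrial large-subunit protein, had 35.4, 23.2 and 30.8 CPM in TG control, against 36.05, 23.3 and 30.1 CPM in WT control (log2 fold change 0.00). The groups overlapped for both. Without TG control 2 the median of the 78 was -0.29, without WT control 1 it was -0.27, and without both, a setting chosen after the data were seen, it was -0.12 with 57 genes lower and 21 higher. With a term for the library split by the unnamed row the median was -0.53. All WT libraries were on the same side of that split, so the term rests on TG control 3 against TG control 1 and 2. The value thus compares mainly TG control 1 and 2 with WT control.

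Intranasal carnosine in WT mice was compared with WT control, which is the same group of 3 libraries as in the preceding comparison. All 78 genes had a lower level in WT intranasal, with a median log2 fold change of -0.51 (quartiles -0.79 and -0.35), against a median of 0.02 over all genes, of which 47.8% were lower. At the Benjamini-Hochberg adjusted threshold of edgeR's quasi-likelihood test 7 of the 78 fell, against 0.683% of all genes called lower. The 7 were 3 large-subunit genes, Mrpl20, Mrpl28 and Mrpl52, and 4 small-subunit genes, Mrps11, Mrps16, Mrps24 and Mrps34, each with an adjusted p of 0.0467. At an unadjusted p under 0.05, 51 were lower, against 12.3% of all genes, and the groups did not overlap for 42, against 13.4%.

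Mrpl20 (gene ID 66448) fell to 52.6, 42.5 and 36.5 CPM in WT intranasal, against 143, 81.2 and 81.5 CPM in WT control, a log2 fold change of -1.21 (SE 0.24). Mrps24 fell to 44.5, 34.3 and 31.4 CPM in WT intranasal, against 123, 66.8 and 72.5 CPM in WT control (log2 fold change -1.25, SE 0.28). In both genes WT control 1 was far above the other WT control libraries, which still lay above all WT intranasal libraries. Mrpl52 (gene ID 68836) fell to 44.9, 31.4 and 29.3 CPM in WT intranasal, against 94.2, 66.4 and 78.6 CPM in WT control (log2 fold change -1.18, SE 0.26). Mrpl28 fell to 63.8, 50.02 and 49.05 CPM in WT intranasal, against 137, 96.98 and 82.5 CPM in WT control (log2 fold change -0.96, SE 0.20). The lowest WT control library exceeded the highest WT intranasal library in each.

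Mrps11 fell to 22.8, 20.9 and 20.3 CPM in WT intranasal, against 39.8, 38.8 and 31.4 CPM in WT control (log2 fold change -0.78, SE 0.17). Mrps16 (gene ID 66242) fell to 29.1, 24.7 and 22.3 CPM in WT intranasal, against 53.7, 47.7 and 41.4 CPM in WT control (log2 fold change -0.91, SE 0.19). Both had narrow groups with a clear gap between them. Mrps34 (gene ID 79044), a small-subunit protein of mitochondria, fell to 39.7, 33.5 and 36.7 CPM in WT intranasal, against 93.2, 70.1 and 48.6 CPM in WT control (log2 fold change -0.95, SE 0.21). Its WT control libraries spread widely and did not overlap with WT intranasal. These calls rest on single libraries: the count was 0 when WT control 1, WT intranasal 2 or WT intranasal 3 was left out, 20 when WT intranasal 1 was left out, against 3.35% of all genes called lower, and 12 when WT control 3 was left out, against 1.47%. It was also 0 in a fit of the WT libraries alone and with upper-quartile scaling. By DESeq2 it was 26, with the 7 among them, against 6.89% of the genes it tested that were called lower. The median over the 78 lay between -0.65 and -0.37 when single libraries were left out.

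**Figure D3:**
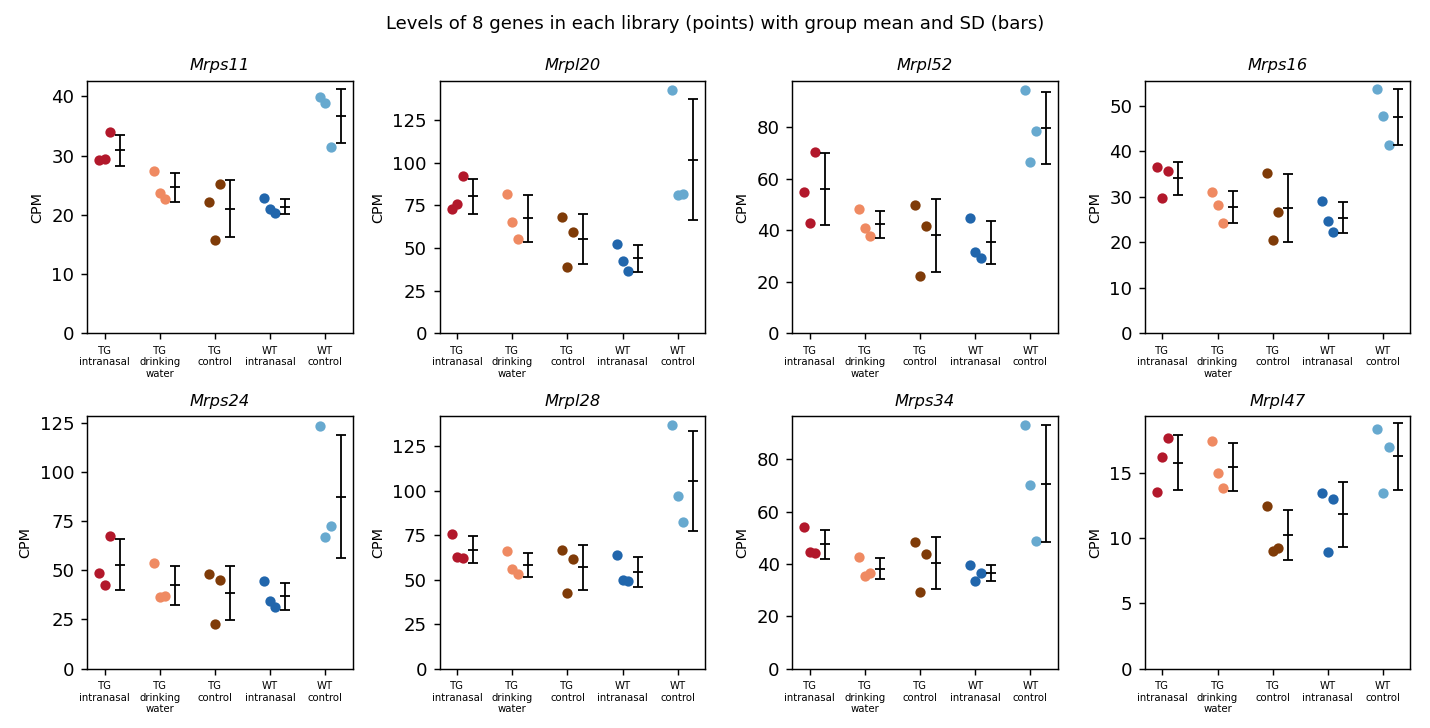
CPM of 8 genes in each library (points, by group), with the group mean and SD beside them. In Mrps11, Mrpl20, Mrpl52, Mrps16, Mrps24, Mrpl28 and Mrps34 the 3 WT control libraries lie above the 3 WT intranasal libraries, and in Mrpl47 the TG control libraries lie below both carnosine groups of TG mice.

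In TG mice, intranasal carnosine was compared with TG control, which shares its 3 control libraries with 2 of the other comparisons. The 78 genes had higher levels in TG intranasal, with a median log2 fold change of 0.34 (quartiles 0.22 and 0.48), and 77 of 78 were above 0, against a median of 0.00 and 49.6% of all genes. The large-subunit median was 0.35 and the small-subunit median 0.30. None passed edgeR's quasi-likelihood test at the Benjamini-Hochberg adjusted threshold, against 0.00632% of all genes, and DESeq2 called none of them, against 0.12% of the genes it tested. At an unadjusted p under 0.05, 16 were higher, against 3.82% of all genes, and 15 did not overlap between groups, against 5.95%.

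The smallest p-values belonged to Mrps11, Mrpl47, Mrpl49, Mrpl44 and Mrpl30, each with an adjusted p of 0.510. Mrps11 had 29.2, 29.4 and 33.9 CPM in TG intranasal, against 22.1, 15.7 and 25.2 CPM in TG control (log2 fold change 0.55, SE 0.17). Mrpl47 (gene ID 74600), a protein near the exit of the peptide tunnel, had 13.5, 16.2 and 17.7 CPM in TG intranasal, against 12.5, 9.02 and 9.22 CPM in TG control (log2 fold change 0.63, SE 0.21). Mrpl49, a large-subunit protein of mitochondria, had 48.1, 41.5 and 43.9 CPM in TG intranasal, against 34.7, 28.5 and 34.8 CPM in TG control (log2 fold change 0.45, SE 0.15). In these 3 genes every TG intranasal library lay above every TG control library. Mrpl44, which has a domain related to ribonuclease III, had 23.3, 25.7 and 28.4 CPM in TG intranasal, against 19.6, 16.2 and 19.9 CPM in TG control (log2 fold change 0.48, SE 0.18). Mrpl30, a protein with a bacterial homologue, had 65.02, 75.3 and 108 CPM in TG intranasal, against 67.5, 40.6 and 55.6 CPM in TG control (log2 fold change 0.60, SE 0.23). The groups did not overlap for Mrpl44, whereas for Mrpl30 TG control 1 exceeded TG intranasal 1.

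Mrpl10 of the stalk was the gene with a negative fold change, with 63.6, 53.2 and 56.2 CPM in TG intranasal, against 65.2, 44.1 and 64.97 CPM in TG control (log2 fold change -0.01), and its groups overlapped. The median of the 78 was 0.17 without TG control 2, and up to 0.47 when another library was left out. With a term for the library split, which in TG rests on TG control 3 against TG control 1 and 2, it was 0.24, with 75 genes higher.

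Carnosine in drinking water gave smaller differences from TG control. The median log2 fold change of the 78 genes in TG drinking water was 0.15 (quartiles 0.07 and 0.24), with 70 above and 8 below 0, against a median of 0.01 and 50.7% above 0 over all genes. None passed edgeR's quasi-likelihood test at the Benjamini-Hochberg adjusted threshold, against 0.00632% of all genes. DESeq2 gave an adjusted p to 64 of the 78 and to 7227 genes in all, and called none of the 64. Of the 7227 genes it called 2.37% in either direction and 0.166% higher. Only Mrpl47 had an unadjusted p under 0.05, against 2.71% of all genes that were higher at that level. Mrpl47 and Mrpl49 did not overlap between groups, against 6.44% of all genes.

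Mrpl47 had 17.4, 14.97 and 13.8 CPM in TG drinking water, against 12.5, 9.02 and 9.22 CPM in TG control, a log2 fold change of 0.59 (SE 0.21) with an adjusted p of 0.405 from edgeR's quasi-likelihood test. Mrpl49 had 41.8, 37.8 and 36.6 CPM in TG drinking water, against 34.7, 28.5 and 34.8 CPM in TG control (log2 fold change 0.24, SE 0.15). The lowest drinking water library lay above the highest control library in both, for Mrpl49 by a small margin. Mrps6, a small-subunit protein with a bacterial homologue, had 37.2, 35.2 and 25.5 CPM in TG drinking water, against 28.4, 19.6 and 27.9 CPM in TG control (log2 fold change 0.37, SE 0.19). Mrpl46, a large-subunit protein of mitochondria, had 31.6, 29.3 and 25.5 CPM in TG drinking water, against 26.7, 15.9 and 25.1 CPM in TG control (log2 fold change 0.35, SE 0.23). Mrpl44 had 24.8, 22.8 and 19.4 CPM in TG drinking water, against 19.6, 16.2 and 19.9 CPM in TG control (log2 fold change 0.27, SE 0.18). The groups overlapped for these 3 genes. Without TG control 2 the median of the 78 was -0.04, and with a term for the library split it was 0.02, with 45 genes higher.

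Intranasal and drinking water carnosine were also set against each other in TG mice. The doses are given in different units, so the routes were not matched by dose. The 78 genes were slightly higher in TG intranasal than in TG drinking water, with a median log2 fold change of 0.20 (quartiles 0.11 and 0.29) and 75 of 78 above 0, against a median of 0.02 and 52.1% over all genes. None passed edgeR's quasi-likelihood test at the Benjamini-Hochberg adjusted threshold, against 0% of all genes, and none reached an unadjusted p under 0.05, against 2.78% of all genes that were higher at that level. DESeq2 called none of the 78, against 0.152% of the genes it tested. For 11 genes the groups did not overlap, against 7.63% of all genes.

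Mrps11 had 29.2, 29.4 and 33.9 CPM in TG intranasal, against 27.3, 23.8 and 22.7 CPM in TG drinking water (log2 fold change 0.33, SE 0.17). Mrps26, a small-subunit protein of mitochondria, had 59.6, 50.01 and 57.2 CPM in TG intranasal, against 47.7, 38.3 and 43.5 CPM in TG drinking water (log2 fold change 0.37, SE 0.20). The groups were separate for both genes. Mrpl38, a large-subunit protein of mitochondria, had 44.3, 38.7 and 34.9 CPM in TG intranasal, against 35.95, 29.9 and 30.8 CPM in TG drinking water (log2 fold change 0.29, SE 0.15). Mrpl40, also a large-subunit protein of mitochondria, had 26.8, 27.6 and 29.3 CPM in TG intranasal, against 23.6, 23.1 and 19.2 CPM in TG drinking water (log2 fold change 0.34, SE 0.19). Mrpl17, which has a bacterial homologue, had 45.6, 46.4 and 51.9 CPM in TG intranasal, against 43.5, 35.3 and 37.6 CPM in TG drinking water (log2 fold change 0.31, SE 0.18). Mrpl38 overlapped between groups, and Mrpl40 and Mrpl17 did not. The fold change was below 0 for Mrpl1, a protein of the stalk at the exit site for tRNA (log2 fold change -0.19), for Mrps6 (log2 fold change -0.10) and for Mrpl34 (log2 fold change -0.01).

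The genotypes were then compared in their response to intranasal carnosine, as the log2 fold change in TG minus that in WT. This difference was above 0 for all 78 genes, with a median of 0.95 (quartiles 0.55 and 1.21), against a median of -0.05 and 47.4% above 0 over all genes. The large-subunit and small-subunit medians were both 0.95. In edgeR's quasi-likelihood test of the interaction, after Benjamini-Hochberg adjustment, 10 of the 78 were called, all with a higher change in TG, against 1.42% of all genes called in that direction. At an unadjusted p under 0.05, 61 of the 78 were above 0, against 13.9% of all genes. The difference combines 4 groups: for most genes WT intranasal lay below WT control and TG intranasal lay above TG control.

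The largest differences among the 10 were those of Mrpl20, at 1.75 (SE 0.34), and Mrpl52, at 1.74 (SE 0.36). Mrpl20 had 73.03, 75.8 and 92.2 CPM in TG intranasal, against 67.9, 38.96 and 59.1 CPM in TG control, beside the WT values given above. Mrpl52 had 54.8, 42.6 and 70.3 CPM in TG intranasal, against 49.8, 22.3 and 41.7 CPM in TG control. In TG mice the groups were separate for Mrpl20 and overlapped for Mrpl52. Mrps24 differed by 1.70 (SE 0.40), with 48.6, 42.4 and 67.3 CPM in TG intranasal, against 48.1, 22.9 and 45.02 CPM in TG control. Mrps16 differed by 1.22 (SE 0.26), with 36.5, 29.8 and 35.7 CPM in TG intranasal, against 35.2, 20.5 and 26.7 CPM in TG control. Both overlapped within TG, and the WT groups were separate for both. Mrps11 differed by 1.34 (SE 0.24) and was separate in both genotypes, in opposite directions.

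Mrpl11 (gene ID 66419) of the stalk base differed by 1.40 (SE 0.31), with 56.2, 48.8 and 66.7 CPM in TG intranasal, against 49.05, 28.1 and 41.5 CPM in TG control. In WT it had 40.3, 33.6 and 33.6 CPM in WT intranasal, against 84.99, 57.3 and 54.1 CPM in WT control. TG intranasal 2 lay just under TG control 1, and the WT groups were separate. Mrps26 (gene ID 99045) differed by 1.21 (SE 0.28), with 59.6, 50.01 and 57.2 CPM in TG intranasal, against 48.7, 29.4 and 47.4 CPM in TG control. In WT it had 45.9, 37.1 and 36.7 CPM in WT intranasal, against 88.3, 64.6 and 55.9 CPM in WT control. Mrps26 was separate in both genotypes.

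Mrpl49 (gene ID 18120) had the smallest difference of the 10, 0.95 (SE 0.21), with 39.9, 30.2 and 34.1 CPM in WT intranasal, against 56.7, 44.7 and 45.9 CPM in WT control. It too was separate in both genotypes. Mrpl28 differed by 1.19 (SE 0.28) and Mrps34 by 1.18 (SE 0.30). The adjusted p was 0.0487 for 9 of the 10 genes and 0.04996 for Mrps34, so the calls lay at the threshold. The count was 0 without any 1 of TG intranasal 1, 2 or 3, TG control 2, WT intranasal 2 or 3, or WT control 1, and 1 without TG control 3. It was 46 without TG control 1, against 7.25% of all genes called in that direction, 41 without WT control 2, against 6.47%, 40 without WT intranasal 1, against 6.08%, and 15 without WT control 3, against 1.77%. DESeq2 called 46, against 17.2% of the genes it tested, a share in either direction. In the direction of the 46 the share was 9.58%. A fit of the 4 groups alone called 0. Without WT control 1 and TG control 2 together the median was 0.53, with 76 of 78 genes above 0 and 0 called.

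**Figure D4:**
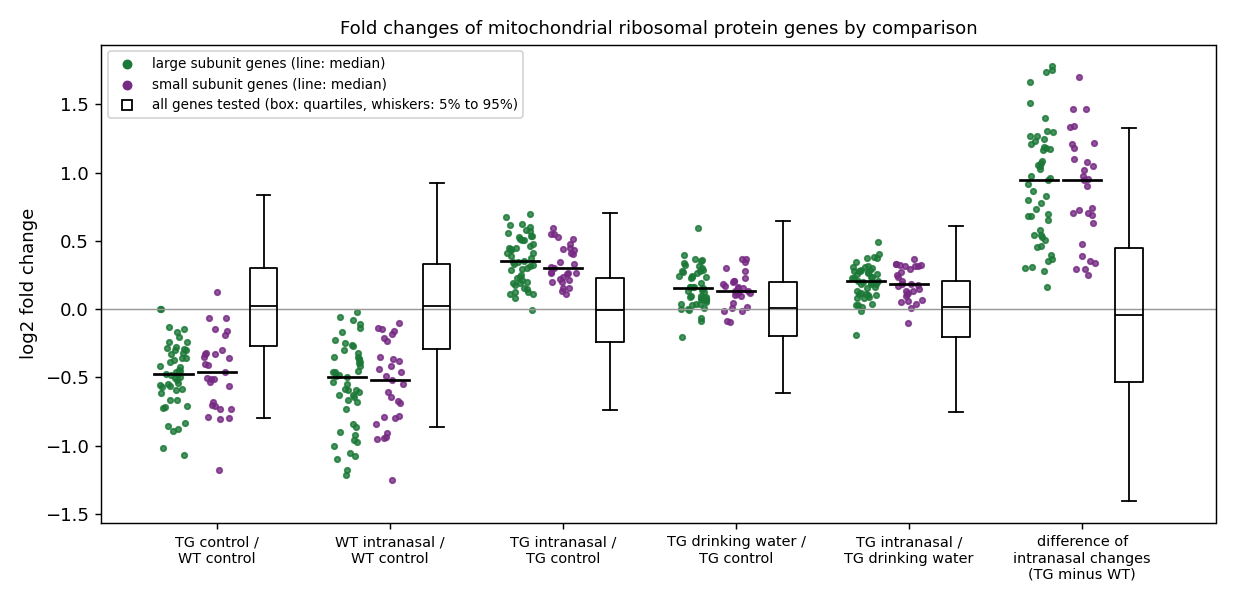
Log2 fold change (vertical axis) of each large-subunit gene (green) and small-subunit gene (purple) in the 5 comparisons and in the difference of the intranasal changes, with black lines at the medians, and boxes for all genes tested (quartiles, with whiskers at the percentiles named in the legend). The medians of the 78 genes are -0.47 and -0.51 in the first 2 columns and 0.95 in the last.

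Mitochondrial ribosomal protein genes have short transcripts, with a median of 1253 bases, against 3069 bases over the 15081 tested genes with a length, and a GC content of 50.5% in both. Fold change went with length across all genes in the same comparisons, with a Spearman's rho of 0.58 in TG control against WT control, 0.60 in WT intranasal against WT control, -0.49 in TG intranasal against TG control, -0.18 in TG drinking water against TG control, -0.38 in TG intranasal against TG drinking water and -0.63 for the difference between genotypes. Genes are not independent replicates, and these values describe the libraries. Within the 78 genes rho was 0.40, 0.55, -0.33, -0.19, -0.24 and -0.53 in the same order. The counts were therefore corrected by a loess fit on transcript length and GC content over all genes.

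After the correction the median log2 fold change of the 78 was -0.12 in TG control against WT control, with 53 lower and 25 higher. It was -0.14 in WT intranasal against WT control, with 52 lower and 26 higher, and 0.12 in TG intranasal against TG control, with 58 higher and 20 lower. TG drinking water against TG control gave 0.05 and TG intranasal against TG drinking water 0.07, each with 54 higher and 24 lower. The difference between genotypes had a corrected median of 0.25, with 55 above and 23 below 0, and none of the 78 was called in any comparison.

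The correction acted unevenly over lengths. In the 26 shortest transcripts, of 418 to 1031 bases, the median in TG control against WT control was -0.59 before the correction and 0.03 after it. In the 26 longest, of 1849 to 7300 bases, it was -0.39 before and -0.42 after. For WT intranasal against WT control the shortest had -0.78 before and -0.03 after, and the longest -0.37 before and -0.43 after. For TG intranasal against TG control the shortest had 0.44 before and 0.01 after, and the longest 0.31 before and 0.27 after. The difference between genotypes was 1.18 before and 0.02 after in the shortest, and 0.69 both before and after in the longest. Whether the annotated form used is the one present in midbrain was not tested, and this matters most for the genes with the longest forms.

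**Figure D5:**
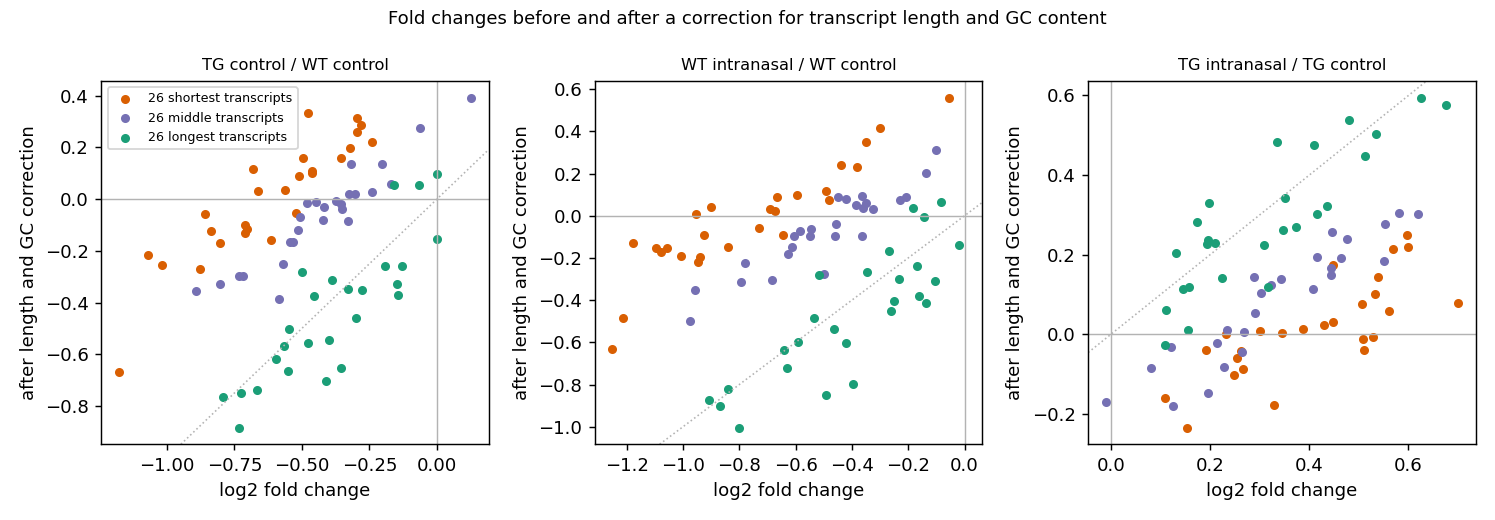
Log2 fold change of each of the 78 genes before (horizontal axis) and after (vertical axis) correction for transcript length and GC content, in 3 comparisons, coloured by the 26 shortest, 26 middle and 26 longest transcripts. The shortest (orange) lie near 0 on the vertical axis, with medians of 0.03, -0.03 and 0.01, and the longest (green) near the dotted line of equality.

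A motif match went with a somewhat larger fold change. The 43 genes with a match to at least 1 of the 3 motifs had a median of -0.54 in TG control against WT control, and the 26 with a window but no match had -0.34. In WT intranasal against WT control the medians were -0.60 with a match and -0.46 without, and for the difference between genotypes they were 1.03 and 0.70. No test was made of these differences, and the groups of genes were not matched for length.

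A head-to-head gene, transcribed in the other direction from a start within 1000 bases, was annotated for 23 of the 78, and 22 of these partners were tested. Partners shared the sign of the mitochondrial ribosomal gene in 13 of 22 pairs in TG control against WT control. The count was also 13 in WT intranasal against WT control and in TG intranasal against TG control. It was 9 in TG drinking water against TG control, 16 in TG intranasal against TG drinking water and 14 for the difference between genotypes. Over all genes tested, 48.0% were lower in TG control and 47.8% in WT intranasal, each against WT control. The shares above 0 were 49.6%, 50.7%, 52.1% and 47.4% in the other comparisons, in the order given. The partners' medians were -0.14 in TG control against WT control and -0.20 in WT intranasal against WT control. Fau, which encodes a cytosolic ribosomal protein fused to a ubiquitin-like part and neighbours Mrpl49, stood at -0.96 in TG control against WT control, and Ndufs6, a complex I subunit that neighbours Mrpl36, at -0.70. Ppp1r10, a phosphatase regulator that neighbours Mrps18b, stood at 0.40. Pairs of this kind included partners on either side of 0.

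Exons of 24 of the 78 genes overlap those of another counted gene in the annotation, on the opposite strand for 21. Among the genes described here, Mrps11 and Mrpl46 overlap each other, Mrpl47 overlaps Actl6a and Ndufb5, Mrpl49 overlaps Syvn1, Mrps26 overlaps 4930473A02Rik, Mrpl44 overlaps Wdfy1, Mrpl24 overlaps Rrnad1, and Mrpl36 overlaps Ndufs6, all on the opposite strand. Mrps34 overlaps Nme3 on its own strand and Mapk8ip3 on the other, Mrps24 overlaps Urgcp on its own strand, and Mrps6 overlaps Slc5a3 on its own strand. The strand setting of the counting is not given in the sources used here, so reads of these pairs cannot be told apart and the values of these genes are uncertain to that extent. Mrpl11, Mrpl20, Mrpl28, Mrpl52 and Mrps16 have no such overlap.

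The rest of the mitochondrial translation pathway was described by lists of its other genes. All values of these lists are without the correction for length and GC content. Mitoribosome proteins with another symbol (5 genes) were all lower in TG control against WT control, with a median of -0.66, and in WT intranasal against WT control, with -0.78, and their difference between genotypes had a median of 0.70. Aurkaip1, a small-subunit protein first described as a partner of Aurora kinase A, differed between genotypes by 1.17 (SE 0.33), and Chchd1, another small-subunit protein, by 1.47 (SE 0.42). Their adjusted p in edgeR's quasi-likelihood test were 0.0509 and 0.0525, so neither passed. Chchd1 had 42.6, 46.9 and 69.3 CPM in TG intranasal, against 43.9, 22.2 and 41.5 CPM in TG control. In WT mice it had 42.6, 31.7 and 30.7 CPM in WT intranasal, against 84.2, 38.8 and 73.9 CPM in WT control.

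Assembly factors (23 genes), which modify, fold or escort the ribosomal RNAs and subunits, had a median of -0.38 in TG control against WT control (18 lower), -0.39 in WT intranasal against WT control (20 lower), 0.24 in TG intranasal against TG control (18 higher) and 0.47 for the difference between genotypes (21 above 0). None was called in any comparison. Mtg1, a GTPase of large-subunit assembly, stood at -0.78 (SE 0.23) in WT intranasal against WT control, and Malsu1, which keeps the subunits apart during assembly, differed between genotypes by 1.33 (SE 0.43). Translation factors (15 genes) were closer to 0, with medians of -0.21, -0.14, 0.21 and 0.34 in the same order, and none was called. Among them Slirp, which stabilises mitochondrial mRNAs, differed between genotypes by 1.73 (SE 0.49), and Mtif3, an initiation factor, by 0.83 (SE 0.29).

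Mitochondrial aminoacyl-tRNA synthetases (20 genes) had medians of -0.08 in TG control against WT control and -0.11 in WT intranasal against WT control, and none was called. One of them, Lars2, followed the split by the unnamed row, at 187 to 399 CPM in TG intranasal, 130 to 298 CPM in TG drinking water, 328 to 5789 CPM in TG control, 5886 to 8168 CPM in WT intranasal and 9204 to 12280 CPM in WT control. The transcription machinery of mitochondria (5 genes) had medians of -0.12 and -0.20 in the same 2 comparisons and 0.25 in TG intranasal against TG control, and none was called. Tfam, which packages mitochondrial DNA and starts its transcription, stood at 0.34 (SE 0.17) in TG drinking water against TG control.

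Regulators of mitochondrial biogenesis (10 genes) had medians on the other side of 0 from the ribosomal genes, without correction for length. The part of transcript length in this was not tested. Their median was 0.37 in TG control against WT control and 0.40 in WT intranasal against WT control, each with 9 higher and 1 lower, and -0.57 for the difference between genotypes, with 8 below 0. Gabpb2, a subunit of GABP, had 15.1, 14.6 and 10.3 CPM in TG intranasal, against 14.1, 21.9 and 15.6 CPM in TG control. In WT mice it had 13.3, 19.1 and 20.3 CPM in WT intranasal, against 7.58, 6.75 and 11.6 CPM in WT control. The WT groups were separate and the TG groups overlapped, and the difference between genotypes was -1.39 (SE 0.34), with an adjusted p of 0.0487 in edgeR's quasi-likelihood test. Gabpb2 was the 1 regulator called. This adjusted p lay at the threshold, as for the ribosomal genes, and whether the call held under the other settings was not examined. Ppargc1a, a coactivator of mitochondrial biogenesis, had 30.2, 38.5 and 35.2 CPM in TG intranasal, against 36.1, 62.8 and 45.2 CPM in TG control, and 32.7, 52.98 and 55.7 CPM in WT intranasal, against 25.6, 36.3 and 38.8 CPM in WT control. Its values were highest in TG control 2, WT intranasal 3 and WT intranasal 2, the libraries lowest in the 78 genes, and lowest in WT control 1.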

How the data were processed

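RNA was sequenced from 15 midbrain samples, as total RNA isolated with a mirVana kit and made into libraries by Illumina protocols, per the labels' protocols. The authors deposited unnormalized whole-number counts, 1 row for each of 24454 genes and 1 column for each sample. Not given in the sources used here are aligner, counting tool, build, annotation and strandedness. Names came from a RefSeq table of assembly GRCm38.p6, which named 24374 rows, and rows without a name made up 0.148% to 6.23% of the counts. No column of another sample was present.

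Counts were fitted in R 4.3.3 with edgeR 4.0.16 (filterByExpr, 15818 genes, TMM scaling, quasi-likelihood F-test, 1 mean for each of the 5 groups over 15 libraries, common biological coefficient of variation 0.244), with Benjamini-Hochberg adjustment over all 15818 genes and a threshold of 0.05. Levels are CPM from TMM-adjusted library sizes, with a prior count of 2 for log2 CPM. The procedure was checked on simulated data. Transcript length and GC content are those of a single annotated transcript per gene, matched for 78 of the 78 genes. It is the longest one with a RefSeq match, or the longest of all where none had a match.

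The genes and lists were chosen with earlier results of these data known. Named are the genes called in a comparison (the 8 smallest p), or the 5 smallest p where fewer than 5 were called, those against the median's direction if 5 or fewer, the 3 highest and lowest per length, genes of known place in the ribosome, and 2 genes of each pathway list. Named outside this rule, after their values were seen, are Mrpl28 and Mrps34 in the difference between genotypes and the non-overlapping Mrpl49 in drinking water. So are Mrpl17 for its length and the pairs with a neighbouring or overlapping gene. The same holds for the markers Slc6a3, Pitx3, Slc1a2, Gfap, Aldh1l1, Gabra6 and Calb1, and for the neuron markers named.

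Alternatives were DESeq2 1.42.0, RLE and upper-quartile scaling, no filter or a filter of 5 CPM in at least 3 libraries, a fit limited to the compared groups, the replicate number as a block, a term for the library split (the unnamed row at over 1% of counts), a loess correction for length and GC content, and leaving out each library.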

Additional observations from a re-analysis of the deposited data

Results flagged for a closer look

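For 10 of the 78 genes the change with intranasal carnosine differed between TG and WT mice by a test of the difference itself, the interaction term of edgeR's quasi-likelihood model with Benjamini-Hochberg adjustment over 15818 genes. The difference, as the log2 fold change in TG minus that in WT, was 1.75 for Mrpl20, 1.74 for Mrpl52, 1.70 for Mrps24, 1.40 for Mrpl11, 1.34 for Mrps11, 1.22 for Mrps16, 1.21 for Mrps26, 1.19 for Mrpl28, 1.18 for Mrps34 and 0.95 for Mrpl49. In each of the 10 the fitted change was above 0 in TG and below 0 in WT. None of the 10 passed the test in TG mice alone. After correction for transcript length and GC content none of the 10 was called.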

How the results depend on the processing

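The direction of the median of the 78 genes was the same in every comparison under DESeq2, both other scalings, both other filters, the fit of the compared groups, the block, the term for the library split and the correction for length and GC content. The number of called genes was less stable, and so was the share of all genes called in the same direction, given in brackets. By DESeq2 it was 11 in TG control against WT control (2.32%), 26 in WT intranasal against WT control (6.89%) and 46 for the difference between genotypes (9.58%), the last 2 holding the 7 and the 10 called by edgeR. For the difference between genotypes it was 20 with RLE scaling (2.84%), 32 with no filter (3.39%) and 27 with a filter of 5 CPM (5.49%), against 10 (1.42%), each time with the 10 among them. For WT intranasal against WT control it was 15 with no filter (1.85%), against 7 (0.683%), with the 7 among them, and 0 with upper-quartile scaling. Both counts were 0 in the fit of the compared groups, with the term for the library split and with the correction for length and GC content, which moved the medians to -0.121 in TG control and -0.144 in WT intranasal, both against WT control, and to 0.248 for the difference between genotypes. Leaving out WT control 1 and TG control 2 together, chosen after the data were seen, gave medians of -0.115 in TG control against WT control and 0.526 for the difference between genotypes, and 0 called in it and in WT intranasal against WT control. Why these counts moved was not tested, except that fits with fewer libraries have fewer degrees of freedom.

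Leaving out single libraries gave 0 to 20 called genes in WT intranasal against WT control (3.35% at the highest), 0 to 46 for the difference between genotypes (7.25% at the highest) and 0 in the other 4 comparisons. The medians ranged over -0.605 to -0.271 in TG control against WT control, -0.649 to -0.365 in WT intranasal against WT control, 0.172 to 0.473 in TG intranasal against TG control, -0.037 to 0.282 in TG drinking water against TG control, 0.108 to 0.313 in TG intranasal against TG drinking water, and 0.714 to 1.053 for the difference between genotypes.

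With a block for the replicate number 15 genes were called in TG control against WT control (2.54%), 30 in WT intranasal against WT control (5.57%) and 49 for the difference between genotypes (8.37%), all in the direction of the medians. The labels do not say that a number marks shared animals or a batch. Deviations of same-numbered libraries from their group means correlated between -0.202 and 0.242, and 10 of 15 libraries correlated best with their own number, which is a hint from the data and not from the design. Not every pair correlated above 0.1, so the numbers were not taken to pair the libraries.

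With the correction for length and GC content many of the 78 changed sign: 25 were above 0 in TG control against WT control, where 2 had been, 26 in WT intranasal against WT control, where none had been, and 23 were below 0 for the difference between genotypes, where none had been. Of the genes named, the following changed sign under other settings. Mrpl50 in TG control against WT control was -0.005 by DESeq2 and with RLE scaling, -0.006 with upper-quartile scaling, -0.024 with the term for the split, -0.138, -0.032 and -0.147 without TG control 1, TG control 3 and WT control 2, and at most 0.159 when 1 library (WT control 1) was left out. Mrps9 lay between -0.037 (without TG control 1) and 0.354 (without TG control 2). Mrpl10 in TG intranasal against TG control was 0.024 with upper-quartile scaling, 0.045, 0.009, 0.079 and 0.085 without TG intranasal 2, TG intranasal 3, TG control 1 and TG control 3, and as low as -0.175 without TG control 2. In TG intranasal against TG drinking water Mrpl34 was 0.005 with upper-quartile scaling, 0.032 without TG intranasal 2, 0.030 without TG drinking water 1 and as low as -0.065 without TG drinking water 2. Mrps6 was 0.004 without TG drinking water 1 and as low as -0.262 without TG drinking water 3.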
